A study of Homo sapiens with 14 samples.

Results

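The transcriptional cyclin-dependent kinases (CDKs) and their cyclins were examined as a list of 10 genes, CDK7, CDK8, CDK9, CDK12, CDK13, CDK19, CCNK, CCNT1, CCNT2 and CCNH, out of 58434 gene symbols with read counts in 14 libraries. CDK12 is also one of the mRNAs that the study itself selected from these libraries as dependent on DAP5, so its values here describe that choice and are not independent evidence of it. The cells were MDA-MB-231, an established human breast cancer line, carrying a doxycycline-inducible short hairpin RNA (shRNA) in the pTRIPZ lentiviral vector. The shRNA was directed either against DAP5, an eIF4G-family initiation factor encoded by EIF4G2 (shDAP5), or was a non-silencing control (shNSi). Both lines were stable lines obtained by puromycin selection and sorting for the red fluorescent reporter, and both received doxycycline at 1 µg/ml for 6 days. Each line was sampled in 2 cultures as total mRNA and, after a sucrose gradient, as light polysomes (mRNA with few ribosomes) and heavy polysomes (mRNA with many). A moderate polysome pool was used here for the shNSi cultures alone. Whether the heavy pools of both lines were cut alike was not tested. The shDAP5 light libraries bear the code that the shNSi cultures use for the moderate pool, and the shDAP5 total libraries are titled total polysome. Both were taken by their titles as light polysome and total mRNA, and every comparison with those libraries rests on that reading.

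Transcriptional CDKs phosphorylate RNA polymerase II and its cofactors rather than driving the cell cycle. CDK7 with cyclin H (CCNH) belongs to the initiation factor TFIIH and also activates other CDKs, and CDK8 or its close copy CDK19 forms the kinase of the Mediator complex. CDK9 with cyclin T1 or T2 (CCNT1, CCNT2) makes up P-TEFb, which releases paused polymerase into elongation. CDK12 and CDK13 each pair with cyclin K (CCNK), and CDK12 is known for sustaining the transcription of long DNA repair genes.

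Each gene has a protein-coding model in GENCODE v29. Positions are given on GRCh38 from that annotation, whereas the submitters' processing notes name hg19, and the counts themselves carry no positions. CDK12 lies at chr17:39461511-39564907 on the plus strand and CDK13 at chr7:39949646-40099580 on the plus strand. These kinases carry long extensions around the kinase domain, and their coding sequences of 4470 and 4536 nt were the longest of the group. Cyclin K lies at chr14:99481169-99535044 with 1740 nt of coding sequence. CDK9 (chr9:127785679-127790787) has 1116 nt, CCNT1 (chr12:48688458-48716998, minus strand) has 2178 nt, and CCNT2 (chr2:134918235-134959342) has 2190 nt. CDK7 (chr5:69234795-69277430) and CCNH (chr5:87318416-87413019, minus strand) have 1038 and 969 nt, the shortest. CDK8 (chr13:26254104-26405238) has 1392 nt and CDK19 (chr6:110609978-110815958, minus strand) has 1506 nt.

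Some of these genes are related in sequence, so the stretches around the longest run of identical coding bases in each pair are shown. CDK12 and CDK13 had 52.2% identical residues over 1327 aligned positions, and the longest run of identical coding bases was 25 nt. CCNT1 and CCNT2 had 53.0% identical residues and a longest shared run of 20 nt. CDK8 and CDK19 were the closest, with 83.8% identical residues and a longest shared run of 19 nt. The stretches around these runs, written 5′ to 3′ along the mRNA, come from the GENCODE v29 transcripts, and capitals mark the bases that differ within a pair.
CDK12, exons 5 to 6, chr17:39494650-39501277, plus strand: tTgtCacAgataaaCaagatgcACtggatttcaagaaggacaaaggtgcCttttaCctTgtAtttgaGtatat
CDK13, exons 5 to 6, chr7:40001987-40045863, plus strand: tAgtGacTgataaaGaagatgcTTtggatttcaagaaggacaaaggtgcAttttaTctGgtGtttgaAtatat
CCNT1, exon 7, chr12:48696043-48696110, minus strand: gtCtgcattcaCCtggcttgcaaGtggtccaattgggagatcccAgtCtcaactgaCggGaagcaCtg
CCNT2, exon 7, chr2:134947788-134947855, plus strand: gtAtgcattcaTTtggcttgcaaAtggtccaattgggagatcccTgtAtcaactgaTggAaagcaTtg
CDK8, exon 6, chr13:26385232-26385298, plus strand: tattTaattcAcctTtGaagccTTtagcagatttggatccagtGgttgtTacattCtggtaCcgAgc
CDK19, exon 6, chr6:110632074-110632140, minus strand: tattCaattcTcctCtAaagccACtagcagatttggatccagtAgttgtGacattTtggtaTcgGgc
The read length and the treatment of reads that match several genes are not given in the sources used here. CCNK overlaps CCDC85C on the opposite strand over 34865 nt and CCNH overlaps RASA1 on the opposite strand over 73516 nt. These are overlaps of gene spans, much longer than the 3905 nt of annotated CCNK exons and 3028 nt of CCNH exons, and the overlap of exons was not analysed here. The use of strand in counting is not stated either, and whether CCNK and CCNH counts hold reads of these partners was not tested.

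Library totals ranged from 25899838 to 30795910 counts, and every one of the 10 genes had at least 293 counts in every library and passed the filter on low counts in every comparison. Levels are given as CPM, counts per 1000000 after TMM scaling over the 14 libraries, with the SD of 2 cultures. EIF4G2, the targeted mRNA, had 1392 and 1359 CPM in shNSi total mRNA and 526 and 730 CPM in shDAP5 total mRNA, lower in both shDAP5 cultures. In total mRNA the line's defining markers VIM, CD44 and AXL were present in all 4 libraries (VIM 4355 to 5450 CPM), ESR1 had 7 to 11 counts, CDH1 2 to 7, PGR 0, and the leukocyte marker PTPRC 1 to 3 counts. A lower CPM in bulk mRNA does not tell fewer cells with the mRNA from less of it per cell. With 2 cultures against 2, an exact two-sided permutation test of a single gene cannot go below p = 0.333, so the tests below come from edgeR's quasi-likelihood fits over all genes, adjusted by the Benjamini-Hochberg method.

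In total mRNA of shNSi cells the kinases and cyclins covered a wide range of levels. Per kb of annotated exon, CDK7 was highest with 33.1 ± 2.33 CPM per kb (SD, n = 2), followed by CDK9 with 30.8 ± 1.10, CCNH with 27.0 ± 3.45 and CCNK with 26.3 ± 2.08. CDK7 and CDK9 overlapped between cultures, and so did CCNH and CCNK. CDK12 came next with 10.4 ± 2.01 CPM per kb and stood apart from its neighbours on both sides. CDK8 followed with 6.21 ± 0.395, CCNT1 with 4.79 ± 1.14, CDK13 with 3.50 ± 0.289, CCNT2 with 2.89 ± 0.325 and CDK19 with 2.05 ± 0.589, and no neighbours among these last genes overlapped. Thus the cyclin K level per kb was above that of both kinases it binds, and CDK9 was above both T-type cyclins. The order in shDAP5 total mRNA was the same, except that CCNK (28.2 and 29.7 CPM per kb) and CCNH (23.6 and 28.6) changed places within their spread and that CCNT1, CDK13, CCNT2 and CDK19 overlapped from one to the next.

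**Figure D1:**
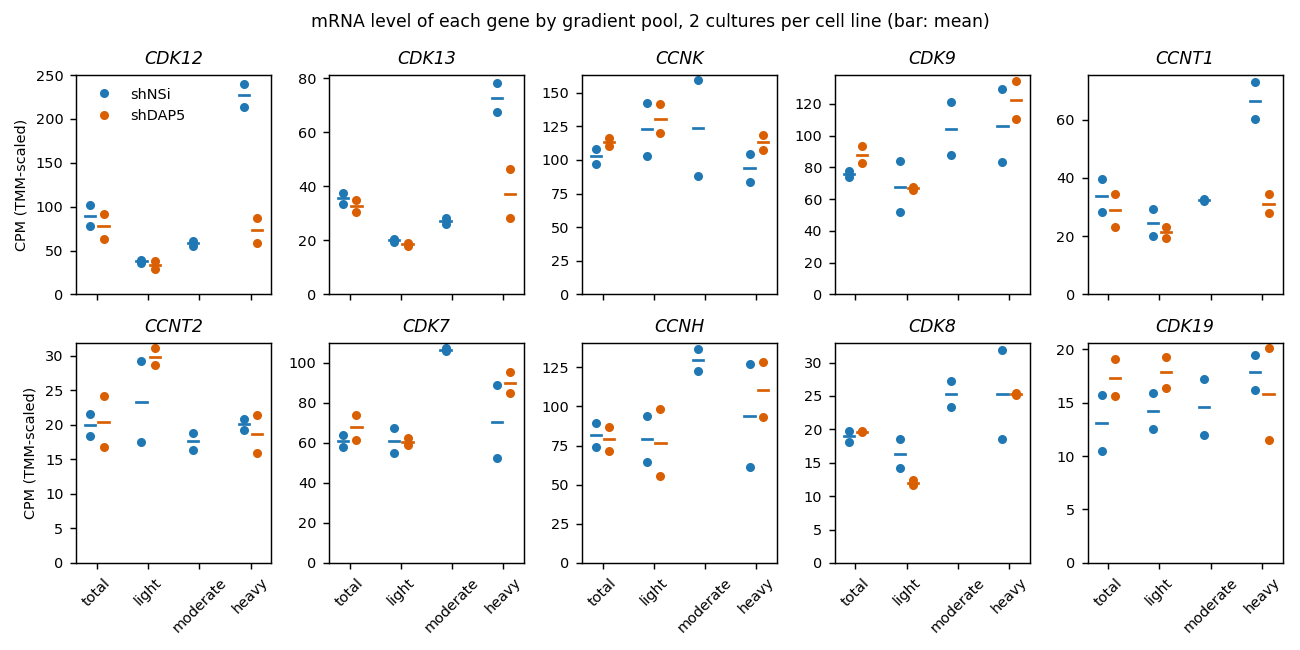
Level of each of the 10 mRNAs in CPM (vertical axis, linear from 0, scaled per gene) in total mRNA and in light, moderate and heavy polysome pools, with each culture as a point and the mean of 2 as a bar; the moderate pool is shown for shNSi only. CDK12 in heavy polysomes stands at 214 and 240 CPM in shNSi and at 87.5 and 58.3 CPM in shDAP5, while its total mRNA points overlap.

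The place of these mRNAs in the gradient of control cells was read first, since heavy polysomes hold the mRNAs with most ribosomes. CDK12 had 36.0 and 39.4 CPM in light polysomes, 55.5 and 61.1 in the moderate pool and 214 and 240 in heavy polysomes of the shNSi cultures. Both cultures therefore had their highest CDK12 level in the heavy pool, with no overlap between pools. CDK13 went the same way, with 20.5 and 19.5 CPM in light, 28.4 and 26.2 in moderate and 67.4 and 78.3 in heavy polysomes. CCNT1, the cyclin of P-TEFb, had 29.2 and 20.0 CPM in light, 32.0 and 32.6 in moderate and 72.8 and 60.1 in heavy polysomes. Fitted over the 8 shNSi libraries with a term for each culture, the log2 difference of heavy over light polysomes was 2.50 (SE 0.27) for CDK12, 1.78 (SE 0.24) for CDK13 and 1.36 (SE 0.24) for CCNT1, with adjusted p of 7.79e-06, 2.36e-05 and 0.000191 (edgeR). These 3 of the 10 genes were called, against a background of 65.6% of all genes called in either direction, so being unequal between light and heavy polysomes was common among all genes.

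The other 7 genes were not called between heavy and light polysomes of shNSi cells. CCNK had 142 and 103 CPM in light and 104 and 83.7 CPM in heavy polysomes, and CCNT2 had 29.2 and 17.5 CPM in light and 19.3 and 20.8 in heavy, both with overlap. For CDK7, CDK8, CDK9 and CCNH the cultures did not move together. In shNSi culture 1 the log2 ratio of heavy to light was 0.69 for CDK7, 1.17 for CDK8, 1.31 for CDK9 and 0.98 for CCNH, whereas in culture 2 it was -0.36 for CDK7, -0.61 for CCNH and close to 0 for CDK8 and CDK9. Without shNSi culture 2, CDK8, CDK9 and CCNH were called as well, 6 of 10 where 55.4% of all genes were called. CDK12 by contrast had 2.57 and 2.61 in the 2 cultures, CDK13 1.71 and 2.01, and CCNT1 1.32 and 1.59.

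Between the moderate and heavy pools of shNSi cells, the same 3 genes were lower in the moderate pool. The log2 difference of moderate over heavy was -1.91 (SE 0.26, adjusted p 9.07e-05) for CDK12, -1.37 (SE 0.24, adjusted p 0.000447) for CDK13 and -0.98 (SE 0.24, adjusted p 0.00491) for CCNT1 by edgeR, against 36.0% of all genes called. CCNT1 lost its call without shNSi culture 1 (-0.79, adjusted p 0.117). Between moderate and light pools CDK7 alone of the 10 was called, with 107 and 106 CPM in moderate and 55.0 and 67.3 CPM in light polysomes and a log2 difference of 0.76 (SE 0.26, adjusted p 0.0447 by edgeR), against 27.1% of all genes. Without shNSi culture 1 this CDK7 value was 0.64 with an adjusted p of 0.124, and library size without TMM also ended the call (0.63, adjusted p 0.0976). The 3 gradient comparisons share libraries, so their calls are not separate evidence.

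**Figure D2:**
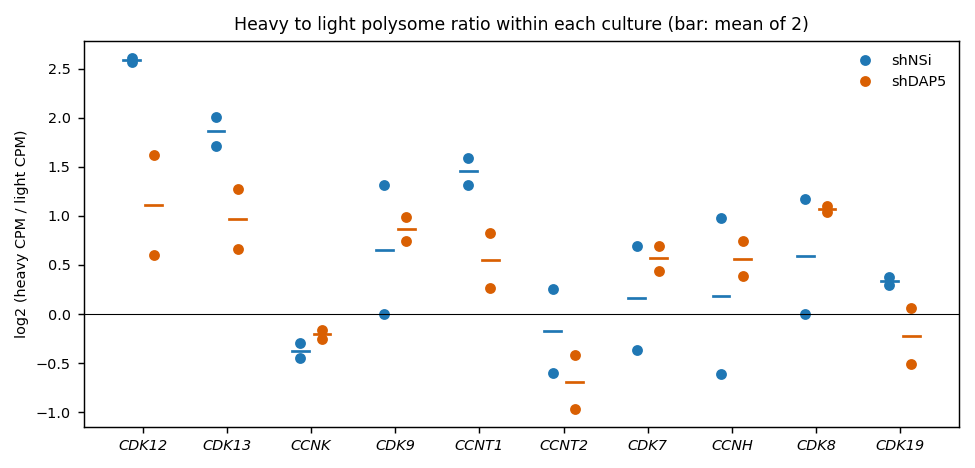
Log2 ratio of heavy to light polysome CPM within each culture (vertical axis) for each gene, with shNSi and shDAP5 cultures as points and the mean of 2 as a bar; 0 means equal CPM in both pools. CDK12 falls from 2.57 and 2.61 in shNSi to 1.62 and 0.60 in shDAP5, and CCNK stays between -0.45 and -0.16 in all 4 cultures.

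Whether DAP5 silencing changed the amount of these mRNAs was asked in total mRNA. None of the 10 genes was called there by edgeR, by DESeq2 or by limma, against 0.354%, 1.82% and 0.0334% of all genes. None had an unadjusted p under 0.05 (edgeR), whereas 12.0% of all genes did. CDK12 total mRNA had 102 and 77.7 CPM in shNSi and 63.6 and 91.9 CPM in shDAP5, and the groups overlapped. Its log2 change was -0.19 (SE 0.21, adjusted p 0.820 by edgeR). CDK13 had 37.6 and 33.5 CPM against 30.6 and 35.0 (log2 change -0.09, SE 0.20), and CCNT1 had 39.7 and 28.2 against 23.0 and 34.6 (-0.21, SE 0.25), both with overlap. Over the 10 genes the log2 changes ran from -0.21 to 0.43, with a median of 0.07 beside 0.01 for all genes. In 2 of the 10 genes, CCNK (108 and 96.8 CPM in shNSi, 110 and 116 in shDAP5) and CDK9 (73.9 and 77.7 against 93.5 and 82.6), the shDAP5 cultures were both above the shNSi cultures, and such a lack of overlap was seen in 42.3% of all genes.

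In heavy polysome mRNA the CDK12 level in shDAP5 cells was 36.5% of control and that of CCNT1 53.3%. The other 8 genes were not called. No moderate pool of the shDAP5 cultures was used, and a different cut of the heavy pools was not tested apart from silencing. The background was high, since 30.9% of all genes were called in this comparison, and 2 of 10 lies under that share. CDK12 had 214 and 240 CPM in the shNSi cultures and 87.5 and 58.3 CPM in the shDAP5 cultures. The groups lay far apart, and the shNSi moderate pool had 55.5 and 61.1 CPM. The log2 change was -1.46 (SE 0.34, adjusted p 0.000428 by edgeR). CCNT1 had 72.8 and 60.1 CPM in shNSi and 34.5 and 28.0 in shDAP5, again apart, with a log2 change of -0.91 (SE 0.33, adjusted p 0.0257 by edgeR). The CDK12 call was lost without shDAP5 culture 2 (-1.22, adjusted p 0.134), with offsets for coding length (-0.64, adjusted p 0.103, or 0.0393 with the replicate block) and with the moderate pool summed into the control (-0.75, adjusted p 0.322), and with the moderate pool alone as control the value was 0.33. The CCNT1 call held in 7 of 15 alternatives, and its value ranged from -1.11 to -0.04. These 15 include the replicate block with crossed numbers, which was chosen after seeing the data. Of all genes, 11.8% were called with the length offsets alone, 2.77% with the summed control and 0.344% with the moderate control.

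The partners of these called genes behaved unequally. CDK13, the closest relative of CDK12, had 67.4 and 78.3 CPM in shNSi and 46.4 and 28.3 CPM in shDAP5 heavy polysomes, without overlap, and a log2 change of -0.78 (SE 0.33) that missed the threshold (adjusted p 0.0574 by edgeR). It passed in 5 of 15 alternatives, DESeq2 among them (-0.87, adjusted p 0.0424), ranged from -1.23 without shDAP5 culture 1 to -0.50 without shDAP5 culture 2, and was 0.03 with offsets for coding length. Cyclin K, which both kinases need, had 104 and 83.7 CPM in shNSi and 107 and 119 CPM in shDAP5, where both cultures were above the controls by a small margin. Its log2 change of 0.45 (SE 0.33, adjusted p 0.292 by edgeR) was not called. CDK9, the kinase of P-TEFb, had 129 and 83.6 CPM against 111 and 134 (log2 change 0.39, SE 0.33), and CCNT2, the alternative cyclin, had 19.3 and 20.8 against 21.5 and 15.9, both with overlap. In TFIIH, CDK7 had 88.8 and 52.3 CPM against 84.7 and 95.4 (log2 change 0.53, SE 0.33), and CCNH had 127 and 61.2 against 93.0 and 128 (0.41, SE 0.33). For the Mediator kinases, CDK8 had 31.9 and 18.6 CPM against 25.1 and 25.5, and CDK19 had 19.5 and 16.2 against 20.1 and 11.5. The shNSi cultures of CDK7, CDK8, CDK9 and CCNH differed more from each other than the shDAP5 cultures did, and the shDAP5 values lay within or near their range. The groups did not overlap in 4 of the 10 genes, CDK12, CDK13 and CCNT1 downward and CCNK upward, where 66.1% of all genes showed no overlap. The median log2 change of the 10 was 0.13 beside 0.09 for all genes tested.

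Heavy translation efficiency relates heavy polysome mRNA to total mRNA of the same culture, and its change with silencing was tested as an interaction over 8 libraries. CDK12 was the only one of the 10 genes called, and it was lower. Its log2 ratio of heavy to total CPM was 1.07 and 1.63 in the shNSi cultures and 0.46 and -0.66 in the shDAP5 cultures. Both shDAP5 cultures were below both controls, and they lay further from each other than the controls did. The fitted change was -1.30 (SE 0.36, adjusted p 0.0174 by edgeR). The background was 13.1% of all genes called, so 1 of 10 is near that share. At an unadjusted p under 0.05, 3 of the 10 genes stood, CDK12, CDK13 and CCNT1, where 29.7% of all genes did.

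CDK13 had log2 ratios of heavy to total of 0.84 and 1.23 in shNSi and 0.60 and -0.31 in shDAP5, and CCNT1 had 0.88 and 1.09 against 0.58 and -0.31. In both genes the shDAP5 culture 1 lay closer to the controls than culture 2 did, as in CDK12. Their fitted changes were -0.74 (SE 0.35, adjusted p 0.146) and -0.70 (SE 0.35, adjusted p 0.167), neither called by edgeR. Leaving out 1 culture moved them from -1.17 (without shDAP5 culture 1, adjusted p 0.00766) to -0.32 (without shDAP5 culture 2) for CDK13 and from -1.12 (adjusted p 0.00974) to -0.29 for CCNT1, in the same cultures. CDK19 was lower without overlap as well, with 0.31 and 0.64 against 0.08 and -0.45 (fitted change -0.50, SE 0.35, adjusted p 0.341). CCNK was higher without overlap, at -0.06 and -0.21 in shNSi and -0.04 and 0.03 in shDAP5 (0.28, SE 0.33, adjusted p 0.609). The other 5 genes overlapped, with fitted changes from 0.01 for CCNT2 to 0.50 for CCNH. In all, 5 of the 10 genes had no overlap, against 59.4% of all genes. The 10 genes had a median change of 0.08 beside 0.09 for all genes tested. Total mRNA enters this ratio as well as the comparison above, and heavy polysome mRNA too, so the 3 sets of values are not independent.

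**Figure D3:**
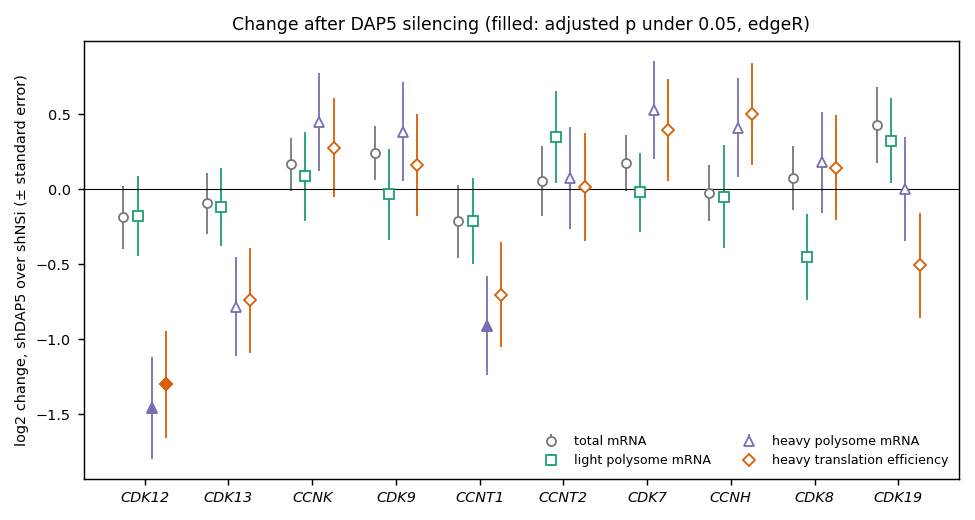
Fitted log2 change of shDAP5 over shNSi (vertical axis, ± standard error) of the 10 genes in total mRNA, light polysome mRNA, heavy polysome mRNA and heavy translation efficiency; filled symbols have an adjusted p under 0.05 by edgeR. The filled symbols are CDK12 in heavy polysome mRNA (-1.46) and heavy translation efficiency (-1.30) and CCNT1 in heavy polysome mRNA (-0.91).

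Light polysome mRNA was compared in the same way. None of the 10 genes was called by edgeR, DESeq2 or limma, where 0%, 0.676% and 0% of all genes were called. None of the 10 had an unadjusted p under 0.05, against 8.56% of all genes. CDK12 had 36.0 and 39.4 CPM in shNSi and 28.5 and 38.5 CPM in shDAP5 light polysomes, with overlap (log2 change -0.18, SE 0.27). CDK13 had 20.5 and 19.5 against 19.2 and 17.8 CPM (-0.12, SE 0.26), and CCNT1 had 29.2 and 20.0 against 19.4 and 23.3 (-0.21, SE 0.29). CDK13, CDK8 (14.2 and 18.6 against 11.7 and 12.4 CPM) and CDK19 (15.9 and 12.5 against 19.3 and 16.4 CPM) were the 3 genes without overlap, against 41.5% of all genes. In light translation efficiency, light over total mRNA, no gene of the 10 was called by edgeR, DESeq2 or limma. Each of these methods called 0% of all genes. By edgeR none of the 10 had an unadjusted p under 0.05, against 5.22% of all genes. CDK8 was the 1 gene of 10 without overlap there, against 36.0% of all genes, with log2 ratios of -0.49 and 0.04 in shNSi and -0.74 and -0.67 in shDAP5. Since the shDAP5 light libraries bear the code of the moderate pool, they were also set against the shNSi moderate pool. With that control 1 of the 10 genes was called in light polysome mRNA, where 25.5% of all genes were, and 2 in light translation efficiency, where 27.5% were, and the CDK12 change in light polysome mRNA was -0.79 (SE 0.31, adjusted p 0.0878 by edgeR).

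The ratio of heavy to light polysome mRNA uses no total library. CDK12 had log2 ratios of 2.57 and 2.61 in shNSi and 1.62 and 0.60 in shDAP5. Both shDAP5 cultures were below both controls, and the change of -1.38 (SE 0.43, adjusted p 0.0538 by edgeR) fell short of the threshold. CDK13 went from 1.71 and 2.01 to 1.27 and 0.67 (fitted change -0.79, SE 0.40), and CCNT1 from 1.32 and 1.59 to 0.83 and 0.27 (-0.81, SE 0.40). None of the 10 genes was called by edgeR, 1 by DESeq2 and 0 by limma, with 6.75% of all genes called by edgeR, and 1 of the 10 had an unadjusted p under 0.05 against 25.1% of all genes. Of all genes, DESeq2 called 12.4% and limma 0%. The groups did not overlap in 5 of 10 genes, against 54.5% of all genes.

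Because kinases act only with their cyclins, the mRNAs of partners were also compared per kb of exon within each library, as a description without a test. CDK12 mRNA per CCNK mRNA was 0.932 and 1.30 in heavy polysomes of the shNSi cultures, against 0.223 and 0.370 in the shDAP5 cultures. In total mRNA this ratio was 0.364 to 0.428 in shNSi and 0.262 to 0.359 in shDAP5, and in light polysomes 0.115 to 0.174 and 0.108 to 0.123. The heavy pool of control cells was thus the one pool in which CDK12 came near cyclin K. CDK12 mRNA per CDK13 mRNA was 3.62 to 3.75 in shNSi heavy polysomes and 2.23 to 2.43 in shDAP5, while the ranges in total mRNA overlapped (2.74 to 3.20 and 2.46 to 3.10). CCNT1 per CCNT2 was 2.81 to 3.69 in shNSi heavy polysomes and 1.57 to 1.72 in shDAP5. It was also lower in shDAP5 without overlap in total mRNA (1.49 to 1.79 against 1.34 to 1.40) and in light polysomes (0.975 to 1.12 against 0.661 to 0.730). CDK7 per CCNH moved little between pools, from 0.984 to 1.84 over shDAP5 light polysomes, the widest pool, and from 1.15 to 1.40 over shNSi heavy polysomes.

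Coding length was set beside these changes, because a long coding sequence can carry more ribosomes and so lie deeper in a gradient. Over the 10 genes the Spearman correlation of coding length with the change in heavy translation efficiency was -0.87, and over the 12467 genes with both values it was -0.71. For heavy polysome mRNA it was -0.76 over the 10 and -0.65 over 12122 genes, and for total mRNA -0.54 and -0.11. These correlations run across genes that share the same libraries and are descriptions, with no test. In shNSi cells the difference of heavy over light polysomes had a correlation of 0.43 over the 10 and 0.65 over all genes. CDK12 and CDK13, whose coding sequences are nearly equal in length, had changes of -1.30 and -0.74, and CCNT1 and CCNT2, also close in length, had -0.70 and 0.01. With offsets for coding length fitted in each library, the CDK12 change in heavy translation efficiency was -0.50 (SE 0.25, adjusted p 0.238 by edgeR) and that of CDK13 was 0.06, and 0 of the 10 genes were called, where 4.16% of all genes were. The part of length in the CDK12 result beyond these values was not tested.

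**Figure D4:**
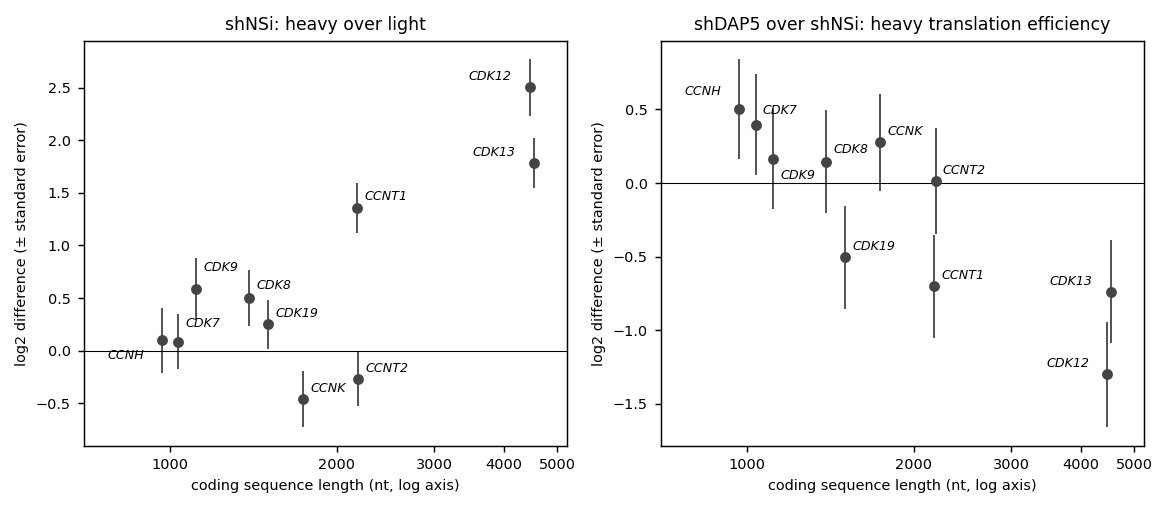
Coding sequence length (horizontal axis, nt, log scale) against the fitted log2 difference (± standard error) of each of the 10 genes, for heavy over light polysomes of shNSi cells on the left and the change of heavy translation efficiency with silencing on the right. On the right, CDK12 (-1.30) and CDK13 (-0.74), the longest, lie lowest, and CCNH (0.50) and CDK7 (0.40), the shortest, lie highest.

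The genes whose level followed that of CDK12 most closely over the 14 libraries were searched among 9391 genes with a mean of at least 10 CPM, by Pearson's r of log2 CPM. Among the closest were AP1G1 (r = 0.993), NUP153 (r = 0.990), MGEA5 (r = 0.988) and PSME4 (r = 0.987). Of the other 9 genes of the list, CDK13 had r = 0.975 and CCNT1 r = 0.920 with CDK12. CDK8 and CDK9 had 0.579 and 0.445, and the remaining genes lay between -0.57 for CCNK and 0.15 for CDK19. Of the genes compared, 99.4% had a lower r than CDK13, 91.0% than CCNT1, 57.6% than CDK8 and 52.0% than CDK9. The 14 libraries share 4 cultures and fall into gradient pools, so these values describe a common course over pools.

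Genes that work with these kinases were read from 8 lists, chosen with earlier results of these data known. In total mRNA no gene of any list was called by edgeR, against 0.354% of all genes. Among 5 partners of the Mediator kinases, 1 was called in heavy translation efficiency, MED12, which anchors the kinase module (-1.32, SE 0.36, adjusted p 0.0159). Their median was -0.55 beside 0.09 for all genes. Among 8 further TFIIH genes 1 was called, GTF2H5, a small TFIIH subunit, and it was higher (1.23, SE 0.34, adjusted p 0.0173), with a list median of 0.13. Among 18 tested P-TEFb regulators 1 was called, AFF1, a scaffold of the super elongation complex (-1.19, SE 0.37, adjusted p 0.0321), with a median of -0.12. None of 5 genes of the CDK11 and cyclin L list was called (median -0.01).

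RNA polymerase II, whose tail these kinases phosphorylate, was split by subunit. Of 11 tested subunit genes 2 were lower in heavy translation efficiency, POLR2B (-1.53, SE 0.36, adjusted p 0.00824) and POLR2A (-1.49, SE 0.36, adjusted p 0.00846), which encode the large catalytic subunits. The 4 that were higher included POLR2L (1.53, SE 0.38, adjusted p 0.0102) and POLR2H (1.22, SE 0.34, adjusted p 0.0174), small subunits of the enzyme, and the list median was 0.81. Of 6 phosphatases of the tail 1 was called, CTDSP1 (0.99, SE 0.34, adjusted p 0.0426), with a median of 0.52. Of 4 DNA repair genes tied to CDK12, which were BRCA1, ATR, FANCI and FANCD2, 1 was called lower, ATR, the kinase of replication stress (-1.35, SE 0.38, adjusted p 0.0201), with a median of -0.86. All 4 were called lower in heavy polysome mRNA (median -1.26 beside 0.09 for all genes), where 30.9% of all genes were called and 16.7% were called lower. None was called in total mRNA (median -0.28 beside 0.01), where 0.354% of all genes were. The coding sequences of these repair genes run from 3984 to 7932 nt. Over all genes coding length had a correlation of -0.65 with the change in heavy polysome mRNA, and the part of length in these calls was not tested. Of 11 cell-cycle CDKs and cyclins, listed for comparison, CDK4 was called higher (1.03, SE 0.36, adjusted p 0.0480) and the median was 0.04. The values in heavy translation efficiency come from the edgeR fit in which 13.1% of all genes were called, and no list was tested as a set. Over all genes coding length had a correlation of -0.71 with the change in heavy translation efficiency. Among the called list genes named, coding sequences ran from 201 nt for POLR2L to 7932 nt for ATR. The part of length in the calls of all 8 lists was not tested. Without shNSi culture 2 and without shDAP5 culture 2, AFF1 was at -1.01 and -0.53 and POLR2L at 1.58 and 0.86. Far fewer genes of the whole table were called in those fits than in the main fit, and each of these calls was lost. Of 15 alternatives, the call held in 8 for POLR2A, 7 for POLR2B, 6 each for POLR2L, MED12 and ATR, 5 for POLR2H, 4 each for GTF2H5, AFF1 and CDK4, and 3 for CTDSP1. These 15 include the replicate block with crossed numbers, which was chosen after seeing the data.

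The CDK12 change in heavy translation efficiency was followed through 15 alternative settings. It was below 0 in 14 of them and called in 5. The replicate block with crossed numbers, chosen after seeing the data, is among the 15 and among the 5. It was -1.36 with DESeq2 (adjusted p 0.0127) and -1.09 when limma was run on values quantile-normalized per fraction (adjusted p 0.0827). Leaving out 1 culture gave values from -1.83 without shDAP5 culture 1 to -0.78 without shDAP5 culture 2, and without shNSi culture 2 it was -1.02. More of all genes were called without shDAP5 culture 1 than in the main fit. Far fewer were called without shDAP5 culture 2 or without shNSi culture 2, so such shifts are not particular to CDK12. With the shNSi moderate pool in place of the heavy pool it was 0.50 (SE 0.44, adjusted p 1), and with both pools summed it was -0.48. With either of these controls, with library size without TMM and with no term for each culture, 0% of all genes were called.

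**Figure D5:**
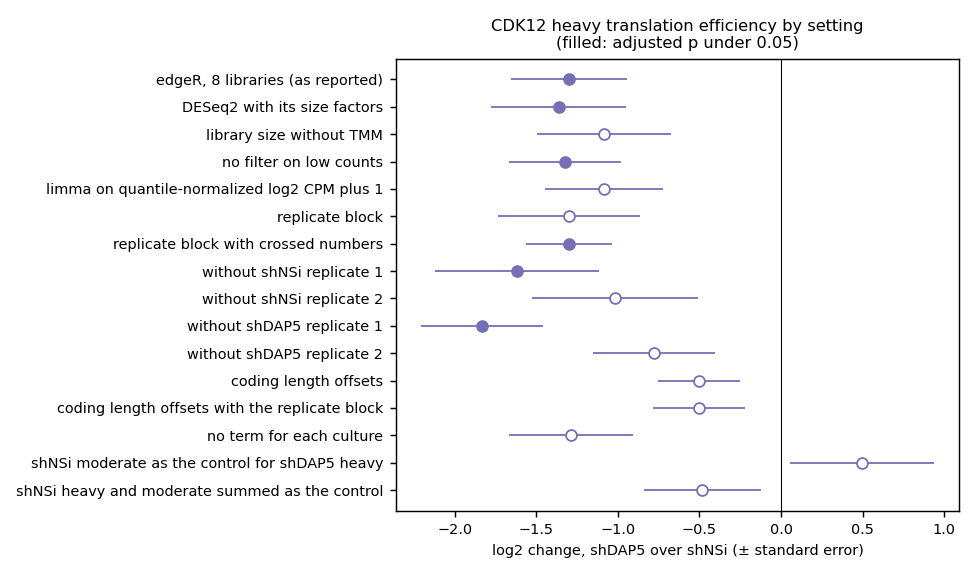
Fitted log2 change of CDK12 heavy translation efficiency (horizontal axis, ± standard error) as reported and under each of 15 alternatives; filled points have an adjusted p under 0.05. The points run from -1.83 without shDAP5 replicate 1 to 0.50 with the shNSi moderate pool as control, the 1 value above 0.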

How the data were processed

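The authors deposited whole-number read counts per gene symbol in 14 libraries, without normalization. The submitters' processing notes name STAR 2.6.0a, limma and hg19, with no role or order. Counts were analysed in R 4.3.3 with filterByExpr, TMM and the quasi-likelihood test of edgeR 4.0.16 (robust), fitted over all genes and adjusted by Benjamini-Hochberg at 0.05. Fraction comparisons used 4 libraries, and ratios 8 with a term for each culture. The shNSi gradient used 8 libraries. Library totals of 25899838 to 30795910 counts and 2 cultures per group set the precision, and the study describes its experiments as performed independently, in 2 sets. Fits were tested on simulated data, drawn with the same dispersion for every gene and without culture or length effects.

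Genes named are the 10 members, EIF4G2, up to 2 lowest and 2 highest called genes of each list in heavy translation efficiency, and the 5 genes most like CDK12, of which 1 is not reported here. Members and lists were chosen with earlier results of these data known. BRCA1, FANCI and FANCD2 were named as list members only. Coding lengths and sequences come from GENCODE v29, matched by symbol. Alternatives were DESeq2 1.42.0, library size without TMM, limma 3.58.1 on quantile-normalized log2 of CPM plus 1, no filter, all 14 libraries in 1 fit, other control pools, coding length offsets, no culture term, the replicate block, and each culture left out. The block with crossed numbers was chosen after seeing the data.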

Additional observations from a re-analysis of the deposited data

Results flagged for a closer look

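The change of CDK12 heavy translation efficiency, -1.30 on the log2 scale (SE 0.36, adjusted p 0.0174 by edgeR), stood out because the step from total to heavy polysome mRNA differed between the shNSi and shDAP5 cultures by a test of that difference. In shNSi cells CDK12 had more CPM in heavy polysomes than in total mRNA in both cultures (log2 ratios 1.07 and 1.63). In shDAP5 cells culture 1 was at 0.46 and culture 2 at -0.66. Over all genes tested the same test called 13.1%.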

How the results depend on the processing

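The number of the 10 genes called, 2 in heavy polysome mRNA and 1 in heavy translation efficiency, depended on the setting, and the causes were not tested beyond what each setting is made of. In heavy polysome mRNA it was 1 with library size without TMM and 0 with offsets for coding length, with the shNSi moderate pool as control and with both pools summed. Of all genes, 25.5% were called there with library size and 11.8% with the offsets, against 30.9% in the main fit. With the moderate pool as control 0.344% of all genes were called, and with both pools summed 2.77%. In heavy translation efficiency it was 0 with library size, with limma, with offsets for coding length, with no term for each culture and with the moderate or the summed control. With library size, with no culture term and with either control 0% of all genes were called, so those counts are not particular to the 10 genes. Limma called 2.65% of all genes and the offsets 4.16%, against 13.1% in the main fit. With the shNSi moderate pool as control for shDAP5 light, 1 gene was called in light polysome mRNA, 2 in light translation efficiency and 3 in the change of the heavy to light ratio, where the main count was 0 in each. Of all genes, 25.5%, 27.5% and 23.9% were called with that control, against 0%, 0% and 6.75%. In that ratio DESeq2 and no filter on low counts gave 1 each, where 12.4% and 5.31% of all genes were called. In shNSi cells, library size gave 5 genes between heavy and light polysomes (3 in the main fit), 6 between moderate and heavy (3) and 0 between moderate and light (1). Of all genes, library size called 69.4%, 46.1% and 25.1% in these comparisons, against 65.6%, 36.0% and 27.1% in the main fit. No filter gave 5 between heavy and light, where 35.9% of all genes were called. The median log2 change of all genes under library size without TMM was 0.34 in heavy polysome mRNA (0.09 with TMM), 0.30 in heavy translation efficiency (0.09) and -0.54 between heavy and light polysomes of shNSi (-0.06). The share of lower genes among all calls was 54.1% in heavy polysome mRNA and 31.3% with library size, 77.1% and 39.2% in the change of the heavy to light ratio, and 48.5% and 63.9% between heavy and light polysomes of shNSi. It was 64.1% and 37.8% between moderate and heavy pools, 54.4% and 70.4% between moderate and light, and 62.9% in heavy translation efficiency against 40.9% with limma.

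Leaving out each culture in turn changed which of the 10 genes were called. Calls were lost in heavy polysome mRNA without shDAP5 culture 2. In heavy translation efficiency they were lost without shDAP5 culture 2 or shNSi culture 2. Far fewer of all genes were called in those fits than in the main fit. More of the 10 were called in heavy translation efficiency without shDAP5 culture 1, where the share of all genes rose too. Without shNSi culture 1, calls appeared in light polysome mRNA, light translation efficiency and the change of the heavy to light ratio. The share of all genes called rose in each of these as well, so such shifts are not particular to the 10 genes. Between heavy and light pools of shNSi cells, more of the 10 were called without shNSi culture 2, although a smaller share of all genes was. Between moderate and light pools the CDK7 call was lost without shNSi culture 1, where fewer of all genes were called too. More of the 10 were called there without shNSi culture 2, again with a smaller share of all genes. These fits leave 1 culture in an arm, which is assumed to vary like the others, and the gradient fits then take their spread from the shDAP5 libraries too.

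The replicate numbers gave little sign of pairing the cultures. The correlation of same-numbered deviations was between -0.14 for the change of the heavy to light ratio and 0.04 for heavy polysome mRNA. With the replicate block the count in heavy translation efficiency was 0, and 0 also with offsets for coding length and the block, while 688 genes were called in all against 2012. With the numbers crossed, chosen after seeing the data, it was 2, with 4133 in all, and the change of the heavy to light ratio gave 1, with 2238 in all. Under the uncrossed block, calls over all genes rose from 53 to 365 in total mRNA and from 4414 to 4710 in heavy polysome mRNA. They rose from 0 to 130 in light polysome mRNA and fell from 1072 to 778 in the change of the heavy to light ratio.

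Of the single values, CDK12, CDK13 and CCNT1 kept their sign between pools of shNSi cells under every alternative run. So did the CDK12 and CCNT1 change of the heavy to light ratio. For that ratio the shNSi moderate pool was set in place of the light pool only, never of the heavy pool. The CDK12 log2 ratio of moderate to light was 0.62 and 0.63 in shNSi, beside 1.62 and 0.60 for heavy to light in shDAP5. With the shNSi moderate pool as control, the signs turned in heavy polysome mRNA for CDK12 (0.33), CDK13 (0.46), CDK7 (-0.23), CCNK (-0.13) and CCNH (-0.22). They turned in heavy translation efficiency for CDK12 (0.50), CDK13 (0.51), CCNT1 (0.17), CDK7 (-0.41), CDK8 (-0.065), CCNK (-0.24), CCNH (-0.21), CDK4 (-0.20), ATR (0.34), MED12 (0.83), AFF1 (0.22), POLR2B (0.99), POLR2A (0.94) and POLR2H (-0.32). With offsets for coding length CDK13 was 0.030 in heavy polysome mRNA (0.028 with the block), 0.060 in heavy translation efficiency (0.060 with the block) and 0.25 in the change of the heavy to light ratio (0.25 with the block), and CDK9 was -0.0034 in heavy translation efficiency (-0.0032 with the block). Values near 0 turned too. In heavy polysome mRNA CDK19 was -0.074 with DESeq2, -0.18 with all 14 libraries, -0.063 with limma, -0.077 with no filter and -0.040 with either block, and CCNT2 was -0.0034 with DESeq2, -0.10 with all 14 libraries and -0.0080 with no filter. In heavy translation efficiency CCNT2 was -0.049 with DESeq2 and -0.012 with no filter. With library size, heavy over light polysomes of shNSi was -0.39 for CDK7, -0.23 for CDK19 and -0.38 for CCNH.

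With a culture left out, total mRNA changes ran from -0.48 to 0.043 for CDK12 and -0.54 to 0.040 for CCNT1, and those in light polysome mRNA from -0.41 to 0.014 and -0.46 to 0.068. Heavy polysome mRNA ran from -0.20 to 0.25 for CCNT2, -0.19 to 0.53 for CDK8, -0.50 to 0.32 for CDK19 and -0.050 to 0.95 for CCNH. Heavy translation efficiency ran from -0.44 to 0.46 for CCNT2, -0.17 to 0.43 for CDK8 and -0.19 to 0.47 for CDK9. Heavy over light polysomes of shNSi ran from -0.46 to 0.57 for CDK7, -0.10 to 1.05 for CDK8, -0.10 to 1.19 for CDK9, -0.73 to 0.16 for CCNT2 and -0.71 to 0.86 for CCNH. Each of the 10 genes had at least 293 counts per library, and how far depth or the number of cultures limits these values was not compared.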
